A study of Drosophila melanogaster with 6 samples.

Results

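The 10 genes described here regulate the mesoderm of the Drosophila melanogaster embryo, its heart and gut muscle, and the fusion of its myoblasts. They are Mef2, tin, bap, Hand, nau, bin, twi, kirre, sns and rols. Probe sets were taken where the array annotation gives 1 of these genes as the single gene symbol. This gave 11 of the 18769 probe sets that are not controls, for 8 of the 10 genes (of 11981 gene symbols on the array), and Mef2 and tin were not analysed here. Of the 11 probe sets, 9 had a present call (a signal judged above background in the authors' deposited table) on at least 3 of 6 arrays and were tested. They cover all 8 genes.

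Total RNA was measured in 6 batches of dechorionated whole embryos on Affymetrix Drosophila Genome 2.0 arrays, 3 batches from mothers with 6 copies of the gene bicoid, bcd (6xbcd) and 3 from mothers with 2 copies (2xbcd, the control). Bicoid, whose RNA the mother places at the front of the egg, specifies head and thorax. All fathers were TT16 males; the mothers were bcd+t8 females in 6xbcd and TT16 females in 2xbcd. Each batch held over 100 fertilised eggs, laid within 90 min and aged for 8 h at 25 degrees, to stages 12 to 13. The mothers' copies of bcd, their stock and the embryos' own genotype differed together and cannot be told apart. In RNA of whole embryos, fewer cells of a type and less RNA per cell cannot be told apart either.

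Twist, a basic helix-loop-helix (bHLH) factor, starts the mesoderm programme in the early embryo and switches on tin and Mef2. Tinman keeps up the dorsal mesoderm, from which heart and gut muscle arise, and activates bap, which in turn activates bin in the cells that become gut muscle. In the body wall, founder myoblasts carry the immunoglobulin receptor Kirre (Dumbfounded) and fusion-competent myoblasts carry its partner Sns (Sticks and stones). Contact between both receptors brings the cells to fuse, and Rols (Antisocial) is the adaptor that acts inside the founder cell. Fusion begins at about the stages sampled here.

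Each array had a present call for 9697 to 10474 probe sets. Of 10137 tested with limma, 134 passed an adjusted p of 0.05. The tested bcd probe set, the check of the labels, read 2335, 1497 and 1375 in 6xbcd replicates 1, 2 and 3 and 861, 546 and 301 in 2xbcd. The groups did not overlap, and the log2 change was 1.66 (SE 0.154, limma adjusted p = 0.0189). Without the pairing of replicates its adjusted p was 0.118. Another bcd probe set was absent on every array and was not tested. That probe set read 116, 148 and 124 in 6xbcd and 21.6, 11.2 and 3.9 in 2xbcd. Along the first principal component of the arrays, which held 53.5% of the variance, the 6xbcd arrays lay at -21.4, 6.87 and -21.6 and the 2xbcd arrays at -22.3, 19.1 and 39.4. Most of the variance between arrays thus lay along an axis on which the groups overlapped and 2xbcd replicates 2 and 3 were highest.

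No probe set of the 8 genes passed the test over all probe sets. The count was 0 of 9 at a limma adjusted p of 0.05, where 1.32% of all tested probe sets passed, and 2 of 9 at an unadjusted p of 0.05, where 14.9% of all did. Without the pairing of replicates 0 of 9 passed as well, against 0.957% of all. The largest differences were those of Hand, kirre and sns, all lower in embryos of 6xbcd mothers. In these 3 every 6xbcd array read below every 2xbcd array, which held for 8.68% of all tested probe sets in that direction. No member lay above in the same way, against 7.38% of all. Over the 9 probe sets the log2 changes ran from -0.84 to 0.11 with a median of -0.07, while the median of all tested probe sets was 0.01. Changes are differences of log2(signal + 16), 6xbcd minus 2xbcd, which understate the change of dim probe sets.

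**Figure D1:**
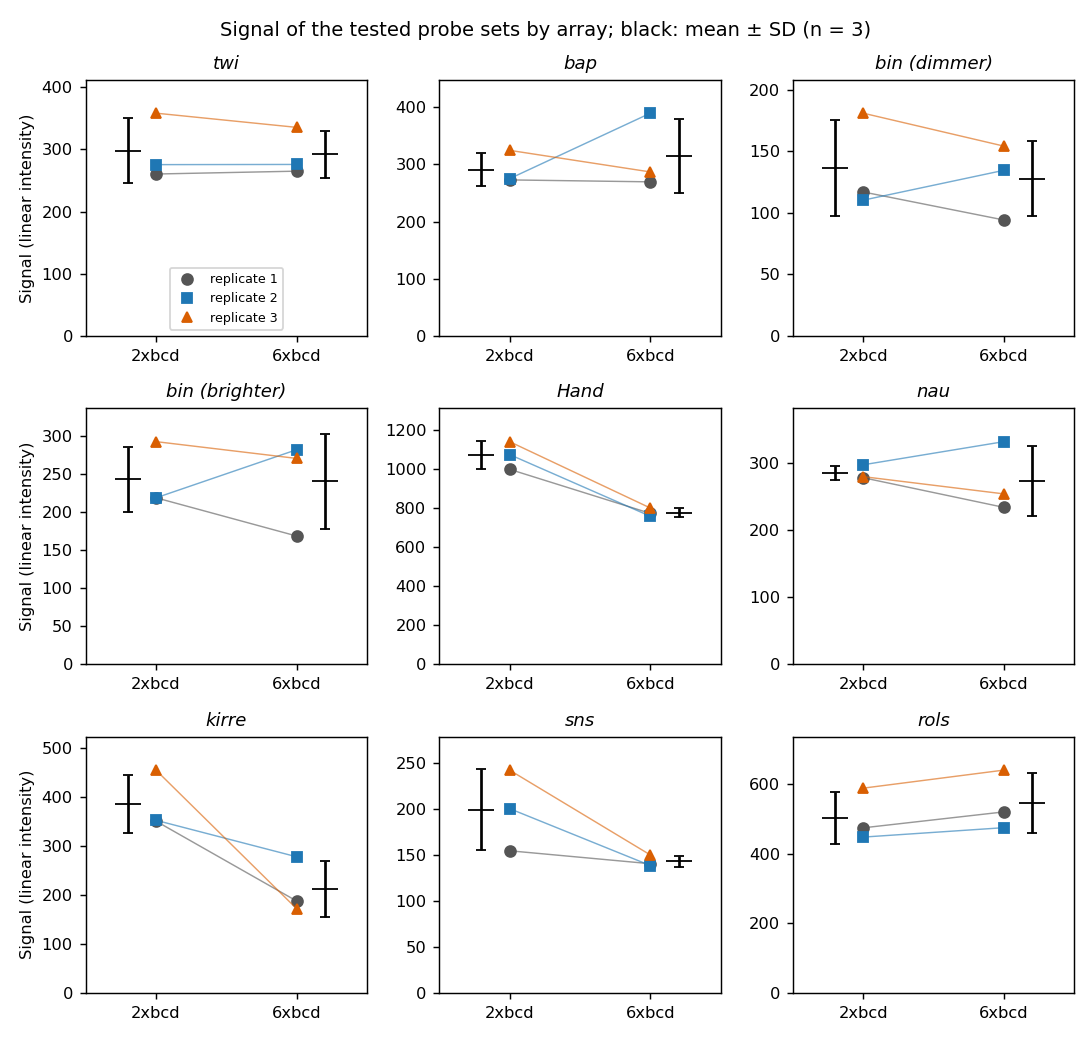
Signal (linear intensity, vertical axis from 0) of the 9 tested probe sets in each array, with 2xbcd on the left and 6xbcd on the right of each panel. Lines join arrays of the same replicate number, and black bars give the mean ± SD of 3 arrays. For Hand, kirre and sns every 6xbcd point lies below every 2xbcd point, and for the other 6 probe sets the groups overlap.

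The mesoderm determinant twi (2R) was level between the groups. It read 265, 276 and 336 in 6xbcd replicates 1, 2 and 3 and 261, 276 and 358 in 2xbcd. Within each pair the arrays were close to each other, and replicate 3 was the highest in both groups. The log2 change was -0.02 with a 95% interval of -0.32 to 0.27 (limma adjusted p = 0.955).

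Bagpipe and Biniou, a homeodomain and a forkhead factor, act in sequence in the gut muscle precursors. The bap (3R) signal was 269.5, 389.6 and 287 in 6xbcd and 273, 275 and 325 in 2xbcd. Replicate 2 of 6xbcd stood highest and the groups overlapped. The log2 change of bap was 0.10 (95% interval -0.31 to 0.51, limma adjusted p = 0.824), and without replicate 2 it turned to -0.09 (adjusted p = 0.913).

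Of the 3 probe sets for bin (3L), 2 were tested. The brighter read 169, 282 and 270 in 6xbcd and 219, 219 and 293 in 2xbcd. The dimmer read 94.2, 135 and 154 in 6xbcd and 117, 110.3 and 181 in 2xbcd, with an absent call in 6xbcd replicate 1. In both, 6xbcd replicate 1 was the lowest of the 6 arrays and 2xbcd replicate 3 the highest. Their pairs moved alike, with log2 differences of -0.35, 0.34 and -0.11 in pairs 1, 2 and 3 for the brighter and -0.27, 0.25 and -0.21 for the dimmer. Thus bin was higher in 6xbcd in pair 2 alone by either probe set, as was bap, with 0.48 there and -0.02 and -0.17 in pairs 1 and 3. The group changes were -0.04 (95% interval -0.48 to 0.41) and -0.08 (-0.56 to 0.41), with limma adjusted p values of 0.949 and 0.893. The remaining bin probe set was absent on all 6 arrays, at signals from 0.5 to 18.2, and no change is given for it.

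Hand (2L), a bHLH factor of the heart, the gut muscle and the blood cell progenitors beside the heart, was the member with the smallest p. It read 773, 758 and 800 in 6xbcd and 998, 1074 and 1140 in 2xbcd. The 6xbcd arrays were tightly grouped, with a coefficient of variation of 2.75% against 6.62% in 2xbcd, and the gap between the groups was wider than either group's spread. The mean was 777 ± 21.4 in 6xbcd and 1071 ± 70.9 in 2xbcd (SD, n = 3). The log2 change was -0.45 (SE 0.0677, 95% interval -0.62 to -0.28), that is, a signal 1.37-fold higher in 2xbcd embryos (interval 1.22 to 1.54).

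The limma adjusted p of Hand was 0.0532, just above the threshold, and its unadjusted p of 0.000742 ranked 141 among the 10137. Its direction held in 3 of 3 pairs, with log2 differences of -0.36, -0.49 and -0.50. All 19 other settings tried kept the direction, with log2 changes from -0.50 to -0.41 and adjusted p values from 0.0345 to 0.328. Settings that changed only the filter, the intensity trend, the pairing or the deposited table used could not move the log2 change itself. Hand passed in 2 of the 19 settings. These were the fit on probe sets present on all 6 arrays (adjusted p = 0.0345), where 2.26% of all passed, and the fit without replicate 3 (0.0474), where 2.66% did. With the first principal component as a covariate in place of the pairs, its log2 change was -0.41 and its adjusted p 0.148.

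The tested genes next to Hand on 2L had smaller log2 changes. The 3 before it, Utx, CG34043 and Ufd4, had log2 changes of -0.06, 0.04 and 0.07. The 3 after it, CYLD, CG5390 and CG4968, had -0.19, -0.0012 and -0.02, and the limma adjusted p values of these 6 ran from 0.449 to 0.999. In Ufd4 alone the groups did not overlap, with every 6xbcd array above every 2xbcd array. By Pearson's correlation of log2 values over the 6 arrays, the named genes most like Hand were Socs16D (r = 0.995), Acyp2 (0.993) and Ten-m (0.991). Of 8802 named probe sets 80 had r over 0.95 with Hand, and the 6 arrays share the same 2 groups, so this is a description only. Socs16D, an X-linked gene of the suppressor of cytokine signalling family, read 58.3, 61.8 and 66.7 in 6xbcd and 134, 178 and 187 in 2xbcd.

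Nautilus, the bHLH factor of the MyoD family that marks a subset of body wall muscle precursors, overlapped between the groups. The nau (3R) signal was 234, 332 and 254 in 6xbcd and 278, 297 and 279.5 in 2xbcd. The 2xbcd arrays lay close together, with a coefficient of variation of 3.74%, inside the range of the 6xbcd arrays, whose coefficient was 18.9%. The log2 change was -0.07 (95% interval -0.42 to 0.27, limma adjusted p = 0.852). Its pairs gave -0.24, 0.15 and -0.13, so that nau, like bap and bin, was higher in 6xbcd in pair 2 alone.

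The founder cell receptor kirre (X) had the largest difference in size among the members. Its tested probe set read 187, 278 and 172 in 6xbcd and 351, 353 and 455 in 2xbcd. All 2xbcd arrays lay above all 6xbcd arrays, and 6xbcd replicate 2 came nearest to the control. The mean was 212 ± 57.4 in 6xbcd and 386 ± 59.7 in 2xbcd (SD, n = 3), a 1.78-fold higher signal in 2xbcd embryos (95% interval 1.24 to 2.57).

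The log2 change of kirre was -0.84 (SE 0.21, limma adjusted p = 0.174), so that it did not pass. The pairs agreed in direction but not in size, at -0.85, -0.33 and -1.33. Over the other 19 settings the log2 change stayed negative, from -1.09 to -0.59, and the adjusted p ran from 0.116 to 0.467. As for Hand, those that changed only the filter, the intensity trend, the pairing or the deposited table could not move the log2 change. The other kirre probe set was absent on all 6 arrays with signals from 5.8 to 33.1, and it gives no second reading of the gene. The ending s_at of the tested probe set marks probes that can match more than 1 transcript, so a share of its signal from another gene was not tested.

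The tested X-linked genes nearest to kirre differed among themselves. The 3 before it, dwg, ttm50 and crm, had log2 changes of -0.42, 0.21 and 0.09. The 3 after it, CG32795, CG14419 and CG3588, had 0.01, 0.80 and 0.11. None of the 6 passed (limma adjusted p from 0.176 to 0.993), and in dwg alone the groups did not overlap.

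The fusion-competent cell receptor sns (2R) was also lower in each pair. It read 141, 139 and 150 in 6xbcd and 155, 201 and 242.5 in 2xbcd. The 6xbcd arrays lay close together, and 2xbcd replicate 1 stood just above them. The log2 change was -0.42 with a 95% interval of -0.86 to 0.02, which includes 0 (limma adjusted p = 0.357). Its pairs gave -0.12, -0.49 and -0.64. With the first principal component as a covariate the change was -0.25 (adjusted p = 0.746), and without 2xbcd replicate 3 and the pairing it was -0.27. Over the pairs and arrays left out it ran from -0.57 to -0.27.

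Around sns on 2R, the 3 tested genes before it, CG30356, stmA and blo, had log2 changes of -0.37, 0.18 and -0.07. The 3 after it, RyR, CG8272 and DCTN2-p50, had -0.34, -0.02 and -0.08. RyR encodes the calcium release channel of muscle. None of the 6 passed (limma adjusted p from 0.474 to 0.980), and in CG30356 alone the groups did not overlap.

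Each of these receptors has a close relative in the same cells, Rst (Roughest) beside Kirre in founder cells and Hbs (Hibris) beside Sns in fusion-competent cells. The rst (X) signal was 3282, 3297 and 3338 in 6xbcd and 3516, 3732 and 3816 in 2xbcd, with no overlap. The hbs (2R) signal was 1582, 1922 and 1751 in 6xbcd and 1592, 1959 and 2057 in 2xbcd, and these overlapped. The log2 change was -0.16 for rst (95% interval -0.30 to -0.01, limma adjusted p = 0.301), and for hbs it was -0.09 (-0.26 to 0.08, adjusted p = 0.582). All 4 receptor genes thus read lower in 6xbcd in every pair, and 19.3% of all tested probe sets did so, while none of the 4 passed. The hbs gene was added after its values were seen, so this is a description only. Its differences in pairs 1 and 2 were only -0.0094 and -0.03. With the first principal component as covariate the log2 change of hbs was 0.06. Whether kirre differed more than rst, or sns more than hbs, was not tested.

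The founder cell adaptor rols (3L) went the other way. It read 519.7, 474 and 639.7 in 6xbcd and 474, 447 and 588 in 2xbcd. Each 6xbcd array lay above its partner, by 0.13, 0.08 and 0.12 on the log2 scale, while the groups as a whole overlapped. Replicate 3 was again the highest in both groups. The log2 change was 0.11 (95% interval -0.10 to 0.32, limma adjusted p = 0.583). A value higher in 3 of 3 pairs was found for 19.7% of all tested probe sets. The rols probe set also ends in s_at, so a share of its signal from another gene was not tested.

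**Figure D2:**
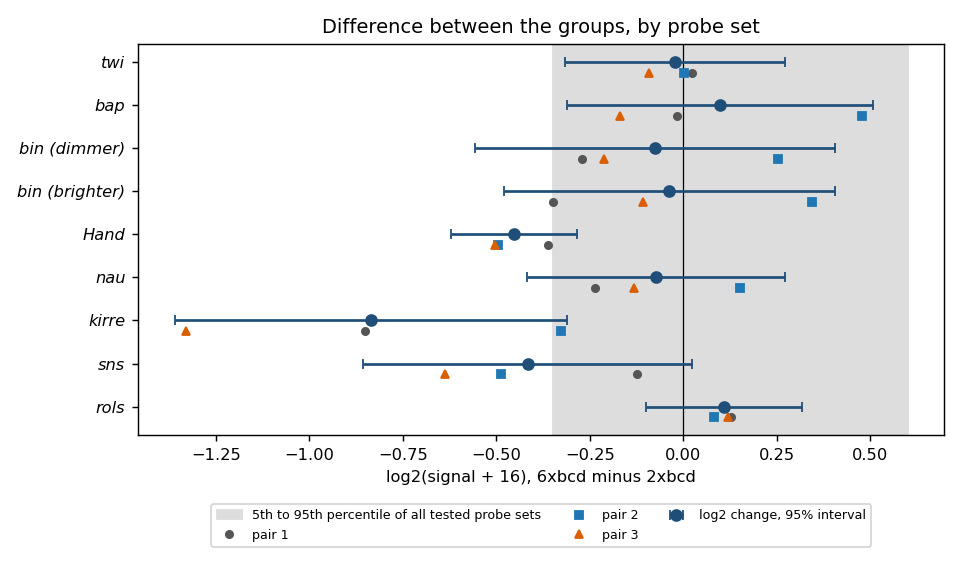
Difference between the groups for the 9 tested probe sets (horizontal axis, log2(signal + 16), 6xbcd minus 2xbcd). Large points are the limma log2 changes with 95% intervals, small symbols the 3 pairs, and the grey band spans the 5th to 95th percentile of all tested probe sets, from -0.35 to 0.60. Hand, kirre and sns lie left of the band, and of these the interval of sns reaches past 0.

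The authors' deposited table compares each pair of arrays by itself and gives a change call. In the authors' deposited table a decrease was called for Hand and kirre in each of the 3 pairs, and for 1.01% of all tested probe sets. These 2 of the 9 member probe sets were the only ones with a change call in any pair there, beside 31.0% of all tested probe sets. For Hand the log2 ratios in the authors' deposited table were -0.4, -0.5 and -0.6. For kirre the authors' deposited table gave -0.4, -0.4 and -0.7, smaller in pairs 1 and 3 than the signal differences of -0.85 and -1.33. For sns the authors' deposited table gave -0.4, -0.4 and -0.6 with no call. For rols its ratio in pair 3 was -0.2, opposite in sign to the signal difference of 0.12.

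Other genes with a part in this programme were counted from 4 lists. Since the RNA was of whole embryos, the tissue that their signal came from was not tested. In the list of mesoderm and fibroblast growth factor (FGF) signalling genes, 5 of 9 genes were tested, 0 passed in either direction, and all 5 changes were negative with a median of -0.15. They included the FGF receptor htl at -0.15 and its ligands ths at -0.23 and pyr at -0.06. The smallest p was that of sna, at -0.15 (limma adjusted p = 0.328), or -0.10 without pair 3. For ths, leaving out 1 pair or array gave values from -0.37 to -0.12, the smallest without 6xbcd replicate 2. In the list of cardiac regulators 11 of 12 were tested and 0 passed, with 7 negative and 4 positive changes and a median of -0.01. The T-box gene Doc2 had a log2 change of -0.28, the LIM homeobox gene tup -0.19, the homeobox gene lbl -0.23 and the T-box gene H15 0.46, with limma adjusted p values from 0.291 to 0.506. Leaving out 1 array, without the pairing, or 1 pair moved tup, at -0.037 without 2xbcd replicate 3, Doc2, at -0.18 without 6xbcd replicate 1, and H15, at 0.28 without 6xbcd replicate 2 and 0.13 without pair 2.

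In the list of muscle identity factors 11 of 13 genes were tested, again with 0 calls, with 9 negative changes and a median of -0.15. The gene tup is counted both here and among the cardiac regulators. The homeobox gene lms, expressed in lateral muscles, read 114, 173 and 169.8 in 6xbcd and 202, 261 and 205 in 2xbcd. Its groups did not overlap, and the log2 change was -0.51 (limma adjusted p = 0.265), or -0.34 without 6xbcd replicate 1. Six4, a homeobox gene of mesoderm subdivision, lay the other way without overlap, at 0.36 (adjusted p = 0.379). The probe sets of Six4 and htl, among others named here, also end in s_at. A share of their signal from another gene was not tested. For kn the log2 change was -0.17 (limma adjusted p = 0.499), or -0.04 without pair 3.

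Of 17 genes of the fusion machinery other than the members, 11 were tested, 0 passed, and 7 changes were negative with a median of -0.03. The smallest p was that of blow, an adaptor of fusion-competent cells that promotes actin growth at the contact. It read 820, 860 and 881 in 6xbcd and 920.3, 1226 and 1119 in 2xbcd, with no overlap, and its log2 change was -0.34 (SE 0.0846, limma adjusted p = 0.174). The actin regulators SCAR and Abi had -0.17 and 0.16 (Abi 0.09 without 2xbcd replicate 1 and 0.07 without pair 1), and lmd, the factor that specifies fusion-competent cells, had 0.05. Over all tested probe sets the median was 0.01.

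**Figure D3:**
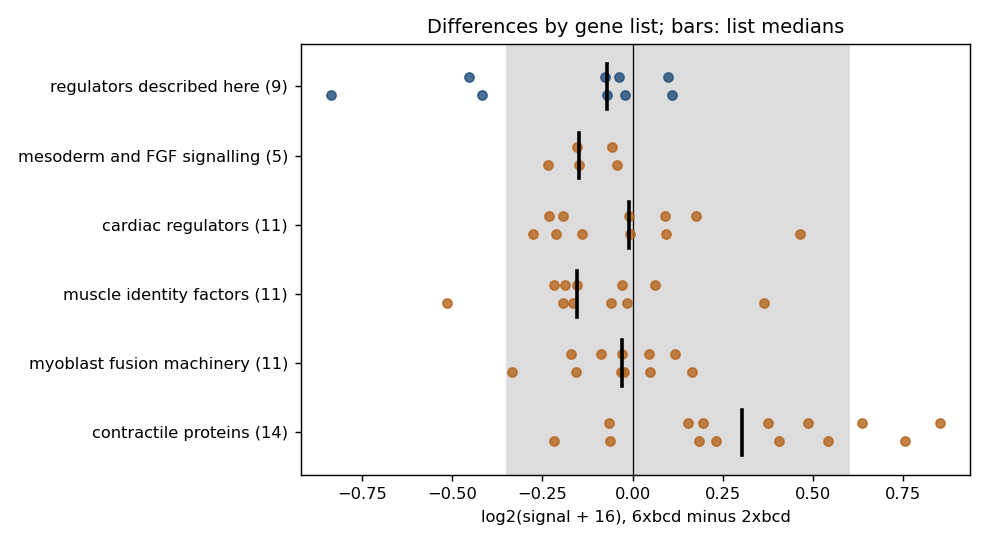
Log2 change (6xbcd minus 2xbcd, log2(signal + 16)) of each tested probe set of the members and of 1 probe set per gene in 5 gene lists, with the number of points in parentheses. Black bars are list medians and the grey band spans the 5th to 95th percentile of all tested probe sets. The medians of the 4 regulator and fusion lists lie between -0.15 and -0.01, and that of the contractile proteins at 0.30.

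Contractile proteins, which muscle cells make after these regulators, had another pattern, in a list that also held the tubulin betaTub60D and Msp300. Of 19 listed genes 14 were tested, 0 passed, and 11 changes were positive, with a median log2 change of 0.30. The 3 negative changes included that of betaTub60D, at -0.22 (limma adjusted p = 0.528), or -0.02 without pair 3. The spread of the contractile genes within the control group was large. Mp20, a calponin-like muscle protein, read 3335, 1059 and 279.8 in 2xbcd replicates 1, 2 and 3 and 1978, 908 and 2762 in 6xbcd. The median ratio of the highest to the lowest control array was 2.77 for the contractile genes, 1.30 for the member probe sets and 1.24 for all tested probe sets. Msp300, a giant protein that anchors muscle nuclei, was even in the control at 118, 119 and 118 and read 179.6, 265 and 243 in 6xbcd (log2 change 0.85, limma adjusted p = 0.12). Of 6 Msp300 probe sets 2 were tested, and these values are from the one with the higher mean. It had an absent call in 2xbcd replicate 3.

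Averaged over the 14 contractile genes, the 2xbcd arrays deviated from the mean of all 6 arrays by 0.54, -0.22 and -0.80 on the log2 scale and the 6xbcd arrays by 0.25, -0.03 and 0.27. Of the 4 lists of regulators and fusion genes, 3 had their highest values in 2xbcd replicate 3, at 0.25 for mesoderm and FGF signalling, 0.19 for cardiac regulators and 0.22 for muscle identity factors. The fusion machinery was highest in 2xbcd replicate 2, at 0.11, with 0.10 in replicate 3. Among the members, 7 of the 9 probe sets were above their own mean in 2xbcd replicate 3 by over 0.15, a margin set after the values were seen, against 22.8% of all tested probe sets. For kirre the excess was 0.66. In 5 of 9 member probe sets (Hand, twi, sns, rols and the dimmer bin probe set) replicate 3 was the highest array in both groups, against 16% of all tested probe sets.

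Markers of other tissues moved among the same arrays. The 11 neural precursor markers tested, of 12 listed, deviated by -0.19, 0.02 and 0.17 in the 2xbcd arrays and by -0.22, 0.03 and 0.19 in 6xbcd. The 10 of 13 late epidermis markers tested deviated by 0.32, -0.30 and -0.38 in 2xbcd and by 0.32, 0.00 and 0.04 in 6xbcd, and 6 of 7 tracheal markers by -0.10, 0.17 and 0.14 and by -0.22, 0.03 and -0.03. The 11 of 12 blood cell markers tested deviated by -0.11, -0.18 and 0.06 in 2xbcd and by 0.05, 0.07 and 0.11 in 6xbcd. The blood cell marker Hml and the epidermal markers Cpr49Ab and ple had probe sets with too few present calls for the test. Of all marker genes tested only PPO1, an oxidase of crystal cells, passed (log2 change 1.09, limma adjusted p = 0.0221), and it lost its call without replicate pair 1 (0.124) and pair 2 (0.125). Without the pairing it also lost its call when 2xbcd replicate 2, 2xbcd replicate 3, 6xbcd replicate 1 or 6xbcd replicate 2 was left out (limma adjusted p from 0.0568 to 0.0843). The part of tissue makeup or embryo age in the differences of Hand, kirre and sns was not tested.

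**Figure D4:**
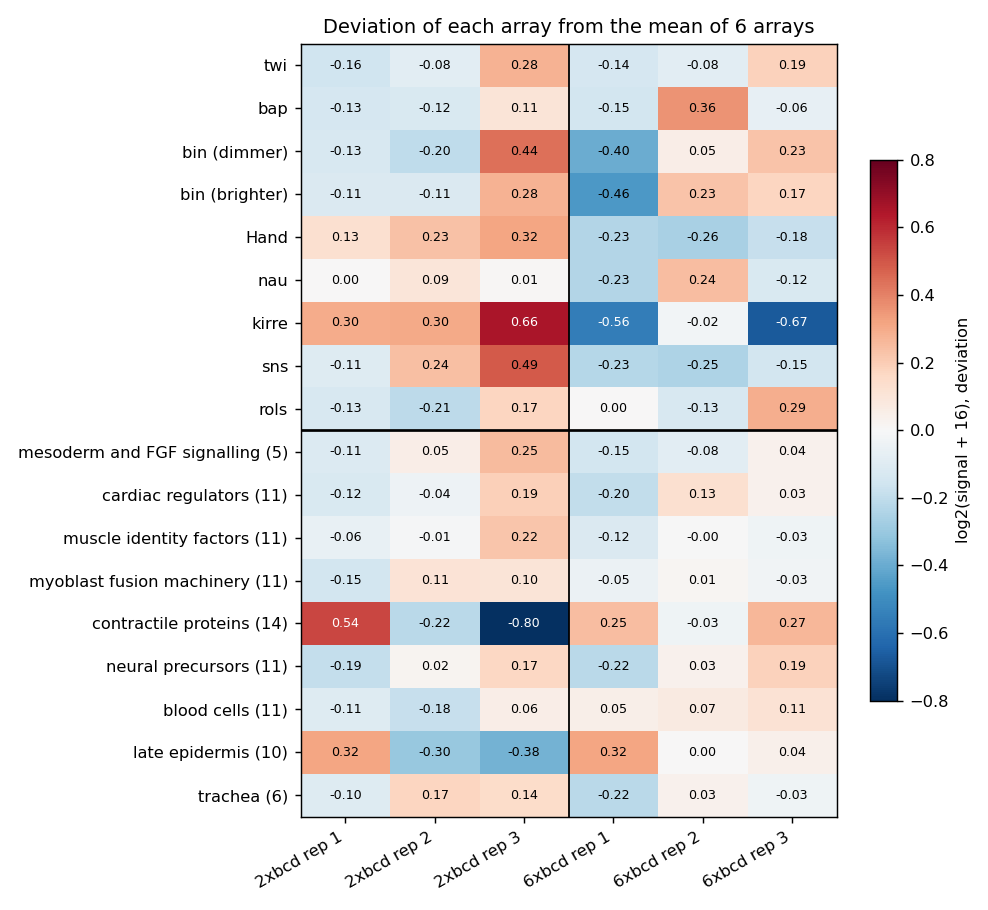
Deviation of each array from the mean of the 6 arrays, on the log2(signal + 16) scale, for the 9 tested member probe sets (above the line) and as means over 9 gene lists (below it, with the number of tested genes). Red is higher and blue lower. Hand and kirre are positive in all 2xbcd arrays and negative in all 6xbcd arrays, while the contractile proteins range from 0.54 to -0.80 among the 2xbcd arrays.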

How the data were processed

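Per the submitters' processing notes the scans were processed with GCOS, of a version not stated there. The authors deposited a signal per probe set, an intensity on a linear scale whose trimmed mean was 500 on every array. Per the file headers, a detection call follows each signal, and the authors gave each pair of arrays a log2 ratio, a p-value of change and a change call. The labels call the replicates biological. Precision is limited by the number of arrays.

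Gene names come from the platform's annotation, and chromosome and gene order from a gene table of assembly Release 6. Leaving out 183 control probe sets, 13646 had 1 symbol, 402 several and 4721 none. Values are log2(signal + 16) of probe sets present on at least 3 of 6 arrays, tested with limma 3.58.1 in R 4.3.3 (lmFit and eBayes, intensity trend, two-sided, Benjamini-Hochberg over 10137 probe sets). The replicate number was a block, since the design text describes paired experiments. Across probe sets, same-numbered arrays deviated from their group means with correlations of 0.437 (pair 1), 0.385 (pair 2) and -0.19 (pair 3), which does not single out these pairs. The fit was also run on data simulated from its own variances and block, which cannot test the pairing or the variance model.

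The members, lists and alternatives were chosen with earlier results of these data known. Named were all members, bcd, up to 4 genes per list with the smallest p, and the 3 genes most like Hand. The genes beside Hand, kirre and sns, and pyr, lmd, hbs, PPO1 and Mp20, lie outside this rule and were added after their values were seen. Alternatives were no block, quantile normalization, median centring, offsets of 1 and 64, no filter, presence on all 6 arrays, no trend, the second deposited table, the first principal component as covariate, and each pair or single array left out. The second deposited table held the same signals.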

Additional observations from a re-analysis of the deposited data

How the results depend on the processing

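The table of all probe sets gave 134 calls and 5 without the intensity trend. With a pair or an array left out it gave 10 to 270, 17 of them without replicate 1, 10 without replicate 2 and 270 without replicate 3. No member passed, with 0 calls in most settings, while 1 member probe set (Hand) passed with presence on all 6 arrays and without replicate 3 (0 to 1 over the arrays and pairs left out). The log2 change of bcd was 1.66 without the replicate block (adjusted p = 0.118) and without the trend (0.14), and 1.19 with the first principal component as covariate (0.0839). With pairs or arrays left out it ran from 1.28 to 2.01, and it lost its call without replicate 1 (0.076) and without replicate 2 (0.0984). With 1 array left out and no block it passed without 2xbcd replicate 1 alone (0.0386). Without the replicate block 97 probe sets passed and no member did. Besides bcd, 29 probe sets of 28 genes were run through the settings, and 28 of 547 values changed sign, none of them past the threshold. The 547 include settings that could not move the log2 change. PPO1, added after seeing the data, kept its call without the replicate block (0.0161) and lost it without the trend (0.153). With the principal component the log2 change turned to 0.013 for nau, 0.134 and 0.092 for bin, 0.078 for twi, 0.031 for htl, 0.115 for zfh1, 0.0022 for tup, -0.015 for TpnC4 and -0.144 for Mlp60A. With pairs or arrays left out it ran from -0.093 to 0.23 for bap, -0.21 to 0.026 for nau, -0.23 to 0.18 and -0.24 to 0.13 for bin, -0.12 to 0.11 for twi, -0.0085 to 0.22 for rols, -0.29 to 0.043 for htl, -0.16 to 0.11 for zfh1 and -0.0095 to 1.21 for Mlp60A. The cause was not tested. Leaving out 1 array was run without the block, since a pair with 1 array adds nothing to a paired difference. Quantile normalization and median centring moved the median of all changes by under 0.03, from 0.01 to -0.02 and -0.01. Dim probe sets, such as those of bin and kirre that were absent on all arrays, limit what can be read.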
